A study of Mus musculus with 4 samples.

Results

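Slco1c1, Slco1a4, Slco2b1, Slco3a1 and Slc22a8 encode organic anion and thyroid hormone carriers of the brain's blood vessels. These 5 genes were chosen by name as a functional group, with earlier results of these data known. All 5 were found among the 14100 genes that both deposited tables list, out of 17905 genes listed in at least 1 of them. RNA sequencing was done on endothelial cells from the brain of C57BL/6 mice at embryonic day 18. The genotype written STINGECKO in the labels had 2 libraries, numbered 1 and 2, and wild type (WT) had 2 libraries, numbered 3 and 5. The labels do not spell out STINGECKO, and the sources used here name no Cre driver, allele or number of pooled embryos. Separate animals are not stated for libraries of 1 genotype, so a p-value here reflects just the variation among these libraries. That variation could be technical in WT, whereas the STINGECKO libraries differ in sex-linked genes, as given below, and are not repeats of a single sample.

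Thyroxine and other organic anions cross the blood-brain barrier poorly without carriers. Members of the organic anion transporting polypeptide family (Slco genes) move thyroid hormones, steroid conjugates, prostaglandins and many drugs across the endothelial membranes without using ATP. Slc22a8 belongs to the Slc22 family of organic anion, cation and carnitine carriers, and it exchanges organic anions for dicarboxylates inside the cell. In mice, Slco1c1 is known as a main entry route of thyroxine into the brain.

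The 4 libraries held between 18610298 (STINGECKO 1) and 22169261 (STINGECKO 2) reads over the listed genes. Levels are given as reads and as CPM (read counts scaled to a common library total), computed with trimmed-mean scaling of the library totals. Levels of different genes are ranked per kilobase of exon (CPM per kb). Shares of Slco reads, reads per Cldn5 read, list sums and the choice of named or like-level genes are not corrected for exon length. The gene that STING signalling is named for, Tmem173, had 67 and 182 reads in STINGECKO libraries, against 97 and 130 reads in WT libraries. The genotypes overlapped for it (log2 difference 0.16 ± 1.26, SE), so Tmem173 does not separate the labels, and every direction given below is that of the libraries labelled STINGECKO. The sources used here do not name the targeted exons, and reads outside a deleted stretch would be counted all the same. The endothelial label could be checked: all 10 brain endothelial markers were read in every library, with summed levels of 19729 and 21359 CPM in STINGECKO libraries, against 19305 and 18599 CPM in WT libraries. Of 9 pericyte and smooth muscle markers, 7 were in both tables. These summed to 9137 and 9535 CPM in STINGECKO libraries, against 7410 and 6848 CPM in WT libraries. Most of each sum was Rgs5, with 6830 and 7238 CPM in STINGECKO libraries, against 5555 and 4845 CPM in WT libraries. Without overlap were 2 higher and 2 lower in STINGECKO, 4 of 7 against 34.2% of all genes tested. The STINGECKO libraries differed in sex markers: in STINGECKO 1 there were 3623 reads of Ddx3y, a Y-linked gene, and 0 reads of Xist. Xist had 876 reads in STINGECKO 2, 2347 in WT 3 and 3374 in WT 5, and the part of sex in any result was not tested.

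Promoter sequences are shown for the members with an entry in the RefSeq promoter table (build GRCm38.p6), because Slco1c1 and Slco1a4 are near neighbours on chromosome 6 with very different levels. Entries were found for 4 of the 5 members, all but Slco3a1. Each line holds the 250 bases before the RefSeq transcript start, 5′ to 3′ on the gene's own strand. Each entry matched 1 annotated transcript of its gene, out of 6 for Slco1c1, 4 for Slco1a4, 9 for Slco2b1 and 3 for Slc22a8. Starts of other transcripts were not examined. The Slc22a8 window lies inside the annotated span of its gene (chr19:8591254-8611834). Capitals mark a 14-base run that Slco1c1 and Slco1a4 share. Slco1c1 is at chr6:141524104-141524353 on the plus strand, Slco1a4 at chr6:141856221-141856470 on the minus strand, Slco2b1 at chr7:99711341-99711590 on the minus strand and Slc22a8 at chr19:8592932-8593181 on the plus strand.
Slco1c1 promoter: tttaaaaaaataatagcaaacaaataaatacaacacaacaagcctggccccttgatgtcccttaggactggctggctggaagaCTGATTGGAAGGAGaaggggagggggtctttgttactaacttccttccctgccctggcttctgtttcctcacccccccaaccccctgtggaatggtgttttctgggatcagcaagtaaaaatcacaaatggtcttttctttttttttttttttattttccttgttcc
Slco1a4 promoter: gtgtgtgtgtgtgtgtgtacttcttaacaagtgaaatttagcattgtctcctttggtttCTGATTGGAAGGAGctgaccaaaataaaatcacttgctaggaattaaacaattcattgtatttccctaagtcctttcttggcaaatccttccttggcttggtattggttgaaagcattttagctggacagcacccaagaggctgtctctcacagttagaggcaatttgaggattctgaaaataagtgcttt
Slco2b1 promoter: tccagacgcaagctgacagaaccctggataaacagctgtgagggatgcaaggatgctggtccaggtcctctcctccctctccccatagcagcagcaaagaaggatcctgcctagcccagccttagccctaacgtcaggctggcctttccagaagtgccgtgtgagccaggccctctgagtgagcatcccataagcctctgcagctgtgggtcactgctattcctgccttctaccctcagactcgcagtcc
Slc22a8 promoter: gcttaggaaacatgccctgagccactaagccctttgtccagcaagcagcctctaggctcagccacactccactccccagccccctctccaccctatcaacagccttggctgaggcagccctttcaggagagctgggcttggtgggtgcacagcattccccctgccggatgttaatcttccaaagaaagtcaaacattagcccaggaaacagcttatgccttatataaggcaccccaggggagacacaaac
The run CTGATTGGAAGGAG begins 167 bases before the start of Slco1c1 and 191 bases before that of Slco1a4. It was found by a search for the longest run shared by each pair of these windows, so its presence in both was set by the search. Among 32851 promoter entries of the same length it occurs in 2, those of these 2 genes. Whether a run of this length is unusual for a pair chosen so was not tested. On its opposite strand it holds the letters CCAAT, which 33.8% of the promoters contain on either strand. A second CCAAT lies 89 bases before the start of Slco1a4, also on the opposite strand. Searched on both strands, none of the 4 windows held the exact letters TATAAA, a form of the TATA box (12.4% of promoters), or GGGCGG, the GC box (32.7%). Other forms of the TATA box were not searched, and the Slc22a8 line holds the letters tatataag near its end. None held AGGTCA, the core of nuclear receptor elements (14%), CCGGAA, an ETS core (12%), or CTTTGA, a TCF/LEF core (13.8%). GC content was 42.8% for Slco1c1 and 39.2% for Slco1a4, and 58.0% for Slco2b1 and 55.2% for Slc22a8, against a median of 52.4% over all entries. These are descriptions of the letters, and no binding was measured.

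Slco1c1, Slc22a8 and Slco2b1 were read at high and even levels in every library, while Slco1a4 and Slco3a1 were low and uneven, with 0 or 1 read in some libraries. None of the 5 differed between genotypes beyond the spread between libraries. In edgeR's quasi-likelihood test with Benjamini-Hochberg adjustment, 0 of 5 members were called at an adjusted p of 0.05, with an adjusted p of 1 for each, where 0% of the 13365 genes tested were called. At an unadjusted p of 0.05 the count was 0 of 5, against 4.86% of all genes tested, and DESeq2 called 0 of 5 at an adjusted p of 0.05, against 0.700%. The libraries of the genotypes overlapped for all 5, whereas 34.2% of the genes tested had no overlap. The biological coefficient of variation shared by all genes was 0.884 in this fit.

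**Figure D1:**
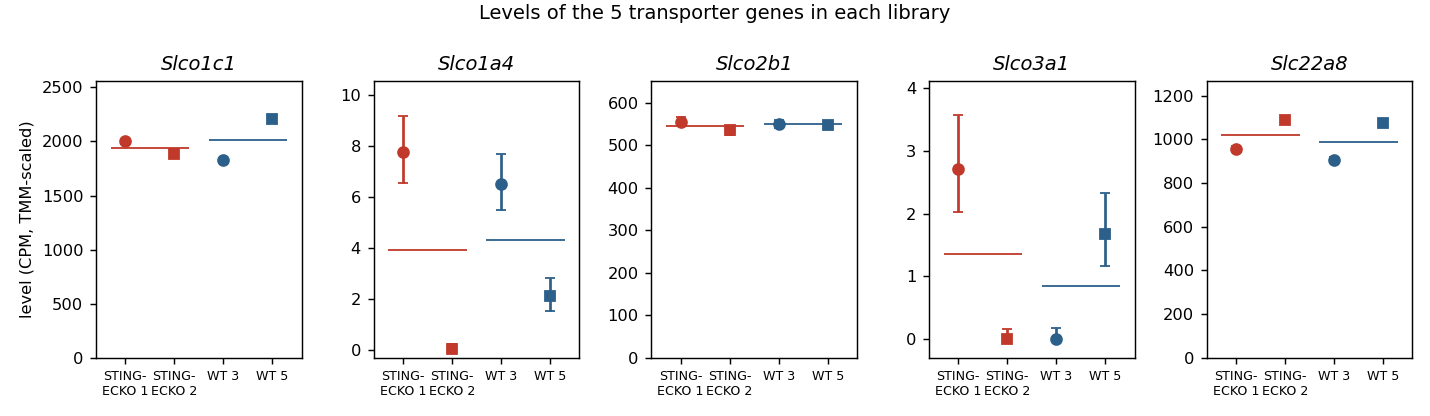
Level of each member in each library, in CPM on linear axes with a scale of their own, STINGECKO libraries (red) left of WT libraries (blue). Points are libraries with exact 95% counting intervals, and lines are genotype means. Slco1c1, Slc22a8 and Slco2b1 are level across all 4 libraries, Slco1a4 falls to 1 read in STINGECKO 2, and Slco3a1 is at 0 in STINGECKO 2 and WT 3.

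Slco1c1 (ENSMUSG00000030235, chr6:141524368-141570177, plus strand, GRCm38), the high-affinity thyroxine carrier, was the highest of the 5. It had 36788 and 41151 reads in STINGECKO libraries, against 39812 and 46010 reads in WT libraries. These were 2000 and 1885 CPM in STINGECKO libraries, against 1829 and 2205 CPM in WT libraries, so WT held both the lowest and the highest value. Means were 1942 ± 81.2 CPM in STINGECKO and 2017 ± 266 CPM in WT (SD, n = 2 each). The log2 difference was -0.05 ± 0.17 (SE), with a 95% interval of the fold from 0.714 to 1.3. Without WT 5 the log2 difference turned to 0.09. Over the 6 pairs of libraries, the mean absolute log2 difference was 0.14 between genotypes and 0.18 within a genotype. Per length it averaged 382 CPM per kb, above 99.3% of the genes tested.

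Slc22a8 (ENSMUSG00000063796, chr19:8591254-8611834, plus strand), organic anion transporter 3, is known at the blood-brain barrier for moving anionic metabolites and drugs out of the brain. It had 17600 and 23745 reads in STINGECKO libraries, against 19726 and 22407 reads in WT libraries. Its levels were 957 and 1088 CPM in STINGECKO libraries, against 906 and 1074 CPM in WT libraries. Each genotype thus had a library below and a library above the mean of the other genotype. Means were 1022 ± 92.6 CPM in STINGECKO and 990 ± 119 CPM in WT (SD, n = 2 each), a log2 difference of 0.05 ± 0.18 (SE). The 95% interval of the fold ran from 0.748 to 1.43. The difference turned to -0.05 without STINGECKO 2 and to -0.08 without WT 3. Its mean absolute log2 difference was 0.13 between genotypes and 0.21 within them.

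Slco2b1 (ENSMUSG00000030737, chr7:99657804-99711340, minus strand), a carrier of steroid sulfates and statins, was the most even member. It had 10217 and 11677 reads in STINGECKO libraries, against 11979 and 11421 reads in WT libraries. Levels were 555 and 535 CPM in STINGECKO libraries, against 550 and 547 CPM in WT libraries, so the WT values lay between the STINGECKO values. Means were 545 ± 14.5 CPM in STINGECKO and 549 ± 2.1 CPM in WT (SD, n = 2 each). The log2 difference was -0.01 ± 0.17 (SE) and the 95% interval of the fold 0.736 to 1.34. Without STINGECKO 2 it was 0.02. The SD of its log2 CPM over the 4 libraries was 0.02, and 0 of 555 genes of a like level had a smaller one (median 0.23). Gm15635 and Gm34280, on the opposite strand, share 471 and 78 exon bases with Slco2b1. Gm15635 had 15 and 167 reads in STINGECKO libraries and 0 in both WT libraries, and the sources used here state no strand setting of the counting, so reads in the shared bases cannot be told apart.

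Slco1a4 (ENSMUSG00000030237, chr6:141805440-141856199, minus strand), which carries bile salts, steroid conjugates and digoxin in rodents, had 143 and 1 reads in STINGECKO libraries. In WT libraries it had 142 and 44 reads. STINGECKO 1 and WT 3 were thus alike and high, WT 5 was lower, and STINGECKO 2 was nearly empty. Levels were 7.77 and 0.0458 CPM in STINGECKO libraries, against 6.52 and 2.11 CPM in WT libraries, with means of 3.91 ± 5.46 CPM in STINGECKO and 4.32 ± 3.12 CPM in WT (SD, n = 2 each). The log2 difference was -0.14 ± 2.18 (SE), and the 95% interval of the fold ran from 0.0193 to 42.4. A single library set its size: it was -6.40 without STINGECKO 1, 0.85 without STINGECKO 2, 0.89 without WT 3 and -0.74 without WT 5. Of 50-base windows of its transcripts, 1.61% also occur in other genes, among them Slco1a1, Slco1a5 and Slco1a6, so a small part of its reads could be shared with these relatives.

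Slco3a1 (ENSMUSG00000025790, chr7:74275419-74554780, minus strand), whose human counterpart carries prostaglandins and thyroxine, had 50 and 0 reads in STINGECKO libraries. In WT libraries it had 0 and 35 reads. Each genotype therefore had a library with reads and a library with 0, where a count of 0 allows up to 3 reads. Levels were 2.72 and 0 CPM in STINGECKO libraries, against 0 and 1.68 CPM in WT libraries, with means of 1.36 ± 1.92 CPM in STINGECKO and 0.839 ± 1.19 CPM in WT (SD, n = 2 each). The log2 difference was 0.69 ± 2.99 (SE), and its 95% interval ran from -6.92 to 8.30 on the log2 scale. Without STINGECKO 1 it was -7.18, without STINGECKO 2 it was 1.69, without WT 3 it was -0.31 and without WT 5 it was 7.82.

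The authors' deposited tables compare STINGECKO 1 with WT 3 and STINGECKO 2 with WT 5, library against library. For Slco3a1, the authors' deposited table gives a fold of 115, marked up, in the first pair, and the second gives 0.0133, marked down. The authors' deposited table marks Slco1a4 down in the second pair (fold 0.0211) and leaves it unmarked in the first (1.16). In the authors' deposited tables Slco1c1 (folds 1.07 and 0.831), Slco2b1 (0.984 and 0.95) and Slc22a8 (1.03 and 0.984) carry no mark in either pair. Marked members were thus 1 of 5 in the first pair and 2 of 5 in the second, where the authors' deposited tables mark 40.9% and 52.1% of all genes.

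**Figure D2:**
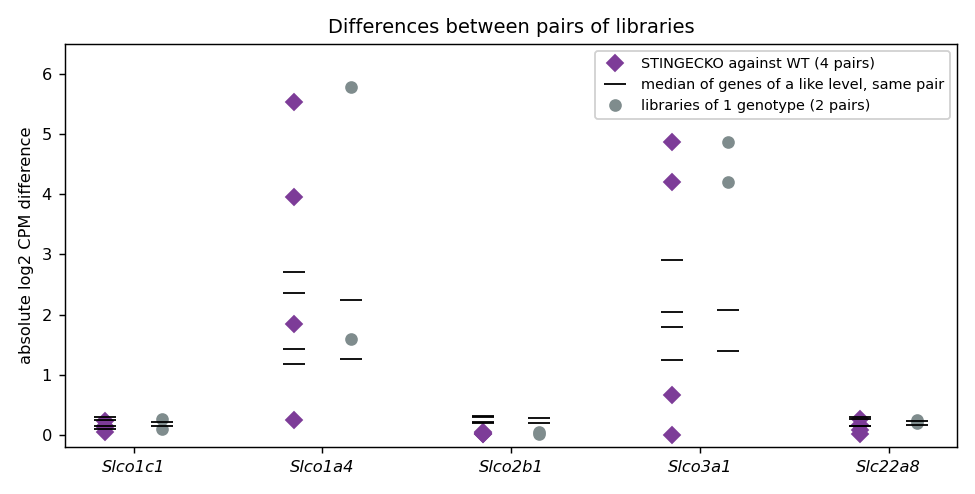
Absolute difference of log2 CPM of each member for each of the 6 pairs of libraries, between genotypes (diamonds) left of within a genotype (circles), with dashes for the median of like-level genes in the same pair. On average the difference was 0.14 between and 0.18 within genotypes for Slco1c1, and 2.90 between and 3.69 within for Slco1a4.

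Many genes of a like level were uneven too, though most were less so than Slco1a4 and Slco3a1. The SD of log2 CPM over the 4 libraries was 2.67 for Slco1a4, where the median of 2692 like-level genes was 2.29 and 60.4% had a smaller SD. It was 2.63 for Slco3a1, where the median of 1380 like-level genes was 2.02 and 84.3% had a smaller SD. STINGECKO 2 stood apart: among genes averaging 1 to 5 CPM in the other libraries, 36.1% had 0 reads in STINGECKO 2 and 8.82% in STINGECKO 1, against 15.3% in WT 3 and 6.42% in WT 5. The pattern of Slco1a4, at most 1 read in STINGECKO 2 and at least 40 in each other library, was found in 496 of the 14100 genes. That of Slco3a1, 0 reads in STINGECKO 2 and WT 3 with at least 30 in the other libraries, was found in 169. The part of these uneven libraries in the values of Slco1a4 and Slco3a1 was not tested.

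**Figure D3:**
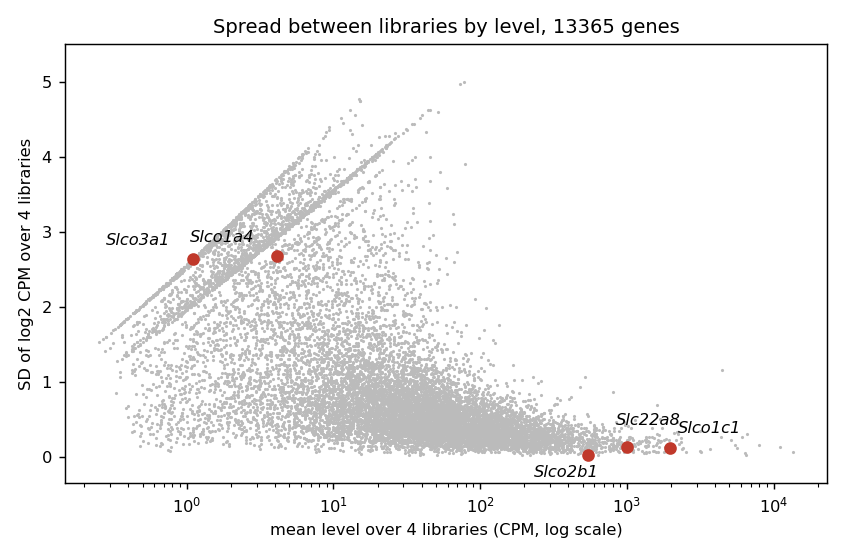
SD of log2 CPM over the 4 libraries against mean CPM (log axis) for all genes, with the 5 members marked. Slco2b1 lies at the lower edge (SD 0.02), Slco1c1 (0.12) and Slc22a8 (0.13) among the even genes, and Slco1a4 (2.67) and Slco3a1 (2.63) among the uneven genes of low level.

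Per kilobase of exon, the order of the members was the same in all 4 libraries: Slco1c1, Slc22a8, Slco2b1, Slco1a4 and Slco3a1. In STINGECKO 2 the order of the last pair rests on 1 read of Slco1a4 against 0 of Slco3a1 and is not determined. Slco1c1 had 386 and 363 CPM per kb in STINGECKO libraries, against 353 and 425 CPM per kb in WT libraries. Slc22a8 had 245 and 278 CPM per kb in STINGECKO libraries, against 232 and 275 CPM per kb in WT libraries. Slco2b1 had 93.2 and 89.8 CPM per kb in STINGECKO libraries, against 92.4 and 91.9 CPM per kb in WT libraries. No library of these 3 genes reached into the range of the next. Slco1a4 reached at most 1.21 CPM per kb and Slco3a1 at most 0.321 CPM per kb, and their ranges over libraries overlapped.

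Within a library, where scaling cancels, the 3 abundant members were compared with each other and with Slco1a4. Slco1c1 had 1.58 and 1.31 times the reads per kb of Slc22a8 in STINGECKO libraries, against 1.52 and 1.55 times in WT libraries. Slco1c1 had 4.14 and 4.05 times the reads per kb of Slco2b1 in STINGECKO libraries, against 3.82 and 4.63 times in WT libraries. Slco1c1 had 318 and 50895 times the reads per kb of Slco1a4 in STINGECKO libraries, against 347 and 1293 times in WT libraries, where the value of STINGECKO 2 rests on 1 read of Slco1a4. Of all reads on Slco genes, Slco1c1 took 64.6% and 62.3% in STINGECKO libraries, against 66% and 67.4% in WT libraries. The exact 95% binomial intervals of these shares, which cover counting error only, were 64.2% to 65% for STINGECKO 1, 62% to 62.7% for STINGECKO 2, 65.6% to 66.4% for WT 3 and 67% to 67.7% for WT 5. Both WT shares lay above both STINGECKO shares for Slco1c1, though the genotypes overlapped in its CPM. In CPM, 34.2% of all genes tested had no overlap. The total of Slco reads includes the family gene Slco2a1, with 16.8% and 19% in STINGECKO libraries, against 13.5% and 15.4% in WT libraries. With 2 libraries a genotype an exact permutation test cannot reach a p of 0.05, and the difference in shares was not tested. Against the tight junction gene Cldn5, Slco1c1 had 0.191 and 0.15 reads per read in STINGECKO libraries, against 0.17 and 0.211 in WT libraries. In bulk samples, fewer endothelial cells and less RNA per cell cannot be told apart.

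The genes whose level pattern was most like each member's were found by the root mean square difference of centred log2 CPM over the 4 libraries, among 4050 or 4051 genes averaging at least 50 CPM. Map7 (0.018) and Tcp1 (0.024) came closest to Slco1c1, Vps72 (0.026) and Limd2 (0.033) to Slc22a8, and Tkt (0.014) and the efflux pump gene Abcb1a (0.029) to Slco2b1. The closest to Slco1a4 were Rabif (0.475) and Fam124b (0.540), and those to Slco3a1 were Dnaaf5 (1.274) and Stat2 (1.371), so the nearest genes of that level range were farther from the low members. With 4 libraries such likeness is a description only.

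The rest of the Slco family was sparse. Of 13 other Slco genes, 4 were tested and 9 were in neither table, and 0 of 4 were called by edgeR's quasi-likelihood test. Slco2a1, the prostaglandin transporter, had 9579 and 12522 reads in STINGECKO libraries, against 8119 and 10537 reads in WT libraries. Its levels of 521 and 574 CPM in STINGECKO libraries stood above 373 and 505 CPM in WT libraries without overlap (log2 difference 0.32 ± 0.22, SE; adjusted p = 1). Among Slco reads, Slco2a1 took 16.8% and 19% in STINGECKO libraries, against 13.5% and 15.4% in WT libraries. STINGECKO was higher without overlap in 15.6% of all genes tested.

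Slco4a1, whose human counterpart carries thyroid hormones, had 80 and 189 reads in STINGECKO libraries and 0 reads in both WT libraries. Taking 3 reads per library as the limit of a count of 0, its mean level was 46.2-fold higher in the libraries labelled STINGECKO. That bound covers counting error of the zeros only, not the spread between libraries. The fitted interval of the fold, not adjusted for the number of genes tested, ran from 13.3 to 87423 and so reached below it. edgeR's quasi-likelihood test gave an adjusted p of 0.971, whereas DESeq2 gave an adjusted p of 0.0499 and edgeR's likelihood ratio test 0.0679. Leaving out a library gave fitted log2 differences from 9.47 to 10.53 with adjusted p-values of at least 0.193. A pattern of 0 reads in both WT libraries and at least 50 in both STINGECKO libraries occurred in 18 of 14100 genes, and the reverse in 66. Slco5a1 had 123 and 403 reads in STINGECKO libraries, against 213 and 262 reads in WT libraries. Slco1b2, a liver carrier that lies between Slco1c1 and Slco1a4 on chromosome 6, had 5 and 68 reads in STINGECKO libraries, against 31 and 2 reads in WT libraries. The genotypes overlapped for both.

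Of 17 other Slc22 genes, 5 were tested, 4 were in 1 table and 8 were in neither, and 0 of 5 were called. Slc22a5, a carnitine transporter, had 330 and 1203 reads in STINGECKO libraries, against 1024 and 447 reads in WT libraries. Slc22a23, an orphan member, had 745 and 156 reads in STINGECKO libraries, against 477 and 482 reads in WT libraries. Slc22a17 had 268 and 353 reads in STINGECKO libraries, against 247 and 121 reads in WT libraries, without overlap in CPM (log2 difference 0.84 ± 0.94, SE). Slc22a21 had 10 and 45 reads in STINGECKO libraries, against 2 and 1 reads in WT libraries (log2 difference 4.11 ± 1.80, SE; adjusted p = 1). It also lacked overlap, so 2 of 5 were higher in STINGECKO without overlap, against 15.6% of all genes tested. Slc22a15 had 21 and 8 reads in STINGECKO libraries, against 1 and 78 reads in WT libraries. Slc22a6, organic anion transporter 1 and the closest relative of Slc22a8, was listed with 2 reads in STINGECKO 1 and 2 in WT 3.

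**Figure D4:**
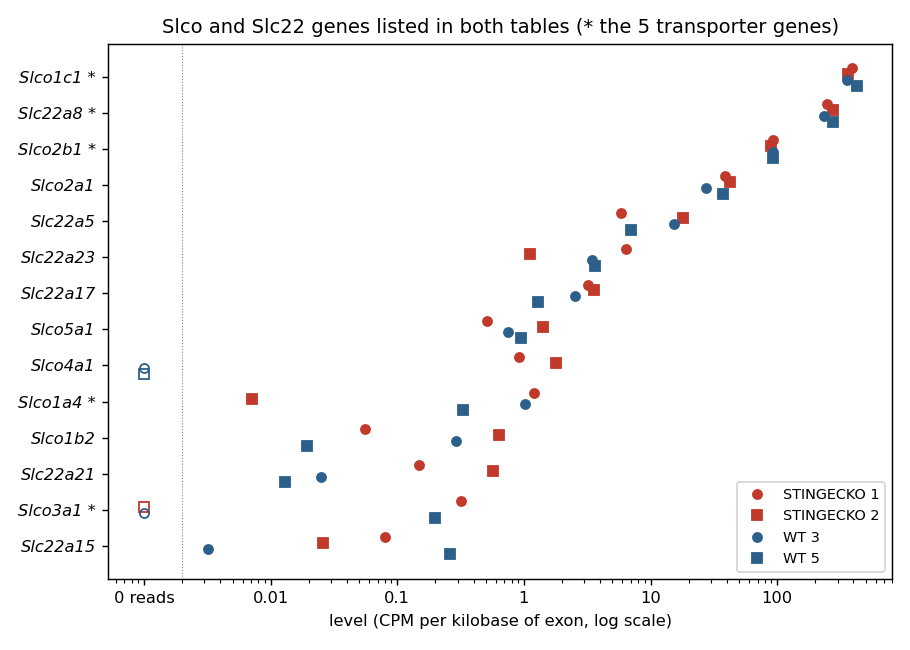
Levels of the Slco and Slc22 genes listed in both tables, in CPM per kilobase of exon on a log axis, 1 point per library (STINGECKO red, WT blue), with open symbols at the left for 0 reads. Slco1c1, Slc22a8, Slco2b1 and Slco2a1 are the highest, and Slco4a1 is at 0 in both WT libraries.

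Of 7 carriers of thyroid hormone outside the Slco family, 5 were tested and 0 were called by edgeR's quasi-likelihood test or by DESeq2. Their median log2 difference was 0.02, from -0.13 to 0.16 when a library was left out, where the median of all 13365 genes was -0.02. The amino acid exchanger Slc7a5, which also takes up thyroid hormones, had 1931 and 3236 CPM in STINGECKO libraries, against 2081 and 1489 CPM in WT libraries. Its partner chain Slc3a2 had 2291 and 2650 CPM in STINGECKO libraries, against 2305 and 2283 CPM in WT libraries. Slc7a8, a related light chain, had 206 and 229 CPM in STINGECKO libraries, against 243 and 186 CPM in WT libraries. The genotypes overlapped for all 5 genes tested.

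Genes of thyroid hormone metabolism and binding averaged at most 44.4 CPM (Txnrd1) among those in both tables. Of 10, 5 were tested, 0 were called, and 3 had no overlap (1 higher, 2 lower in STINGECKO), where 15.6% of all genes tested were higher and 18.6% lower without overlap. Txnrd1, a thioredoxin reductase, had 55.2 and 63.3 CPM in STINGECKO libraries, against 24.8 and 34.5 CPM in WT libraries (log2 difference 1.00 ± 0.46, SE; adjusted p = 1). Secisbp2, which is needed for selenoprotein synthesis, had 34.8 and 12.2 CPM in STINGECKO libraries, against 45.4 and 41.9 CPM in WT libraries. Sult1a1, a sulfotransferase, had 6.47 and 5.54 CPM in STINGECKO libraries, against 7.21 and 7.72 CPM in WT libraries. Ttr, the thyroxine carrier protein of the choroid plexus, had 102 and 180 reads in STINGECKO libraries, against 21 and 234 reads in WT libraries. Dio2, the enzyme that activates thyroxine, had 119 and 0 reads in STINGECKO libraries, against 0 and 11 reads in WT libraries, the same libraries being at 0 as for Slco3a1; it is named after its values were seen.

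Of 12 thyroid hormone receptor and cofactor genes, 10 were tested and 0 were called, with 2 higher and 2 lower in STINGECKO without overlap (34.2% of all genes lacked overlap). Their median log2 difference was 0.30, but 0.11 without STINGECKO 1 and -0.04 without STINGECKO 2. The receptor Thra had 106 and 141 CPM in STINGECKO libraries, against 111 and 89.8 CPM in WT libraries. Thrb was in neither table. The corepressor Ncor1 had 234 and 269 CPM in STINGECKO libraries, against 196 and 328 CPM in WT libraries. Med1, a Mediator subunit that coactivates the receptor, had 74.1 and 64.4 CPM in STINGECKO libraries, against 59.4 and 52.1 CPM in WT libraries (log2 difference 0.31 ± 0.36, SE). Of 15 genes listed as responsive to thyroid hormone, 8 were tested, 0 were called, and 4 lay above and 4 below 0. Without overlap were 2 higher and 4 lower, 6 of 8 against 34.2% of all genes, with Slc1a3 among the lower. The median log2 difference was 0.05, and it was below 0, from -0.51 to -0.17, when any library was left out. These fits tested 8 or 9 genes of the list, and all 4 libraries without the low count filter gave -0.30 over 9 genes. Klf9, a direct target of the receptor, had 19.5 and 42.6 CPM in STINGECKO libraries, against 25 and 6.37 CPM in WT libraries. Slc1a3, which is also an astrocyte marker, had 13.1 and 0.595 CPM in STINGECKO libraries, against 50.5 and 33.7 CPM in WT libraries.

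**Figure D5:**
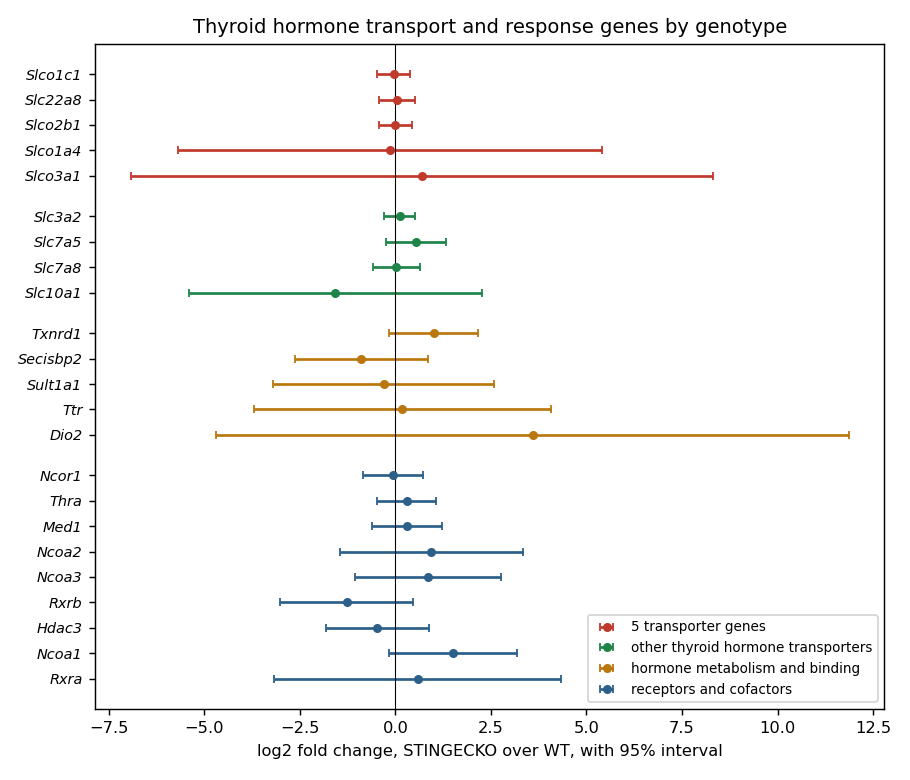
Log2 difference, STINGECKO minus WT, with its 95% interval, for the members and genes of thyroid hormone transport, metabolism and reception. Every interval drawn includes 0, those of Slco1c1, Slc22a8 and Slco2b1 reach no further than 0.51 from 0, and those of Slco1a4 and Slco3a1 reach beyond 5.

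Enzymes that conjugate organic anions had 9 of 16 genes tested and 0 called. Their median log2 difference was 0.36, but 0.19 without STINGECKO 1, -0.21 without STINGECKO 2, -0.37 without WT 3 and 0.08 without WT 5. Gstm1, a glutathione transferase, had 183 and 310 CPM in STINGECKO libraries, against 150 and 228 CPM in WT libraries. Por, the electron donor of cytochromes P450, had 51.1 and 84.5 CPM in STINGECKO libraries, against 40.1 and 65.8 CPM in WT libraries. Of 18 regulators of transporter genes, 13 were tested and 0 were called, with 3 higher and 3 lower in STINGECKO without overlap, 6 of 13 against 34.2% of all genes. Their median log2 difference was 0.06, from -0.15 to 0.07 when a library was left out. Ctnnb1, the effector of canonical Wnt signalling, had 683 and 553 CPM in STINGECKO libraries, against 506 and 505 CPM in WT libraries (log2 difference 0.29 ± 0.19, SE). Sox17 had 446 and 267 CPM in STINGECKO libraries, against 521 and 442 CPM in WT libraries. Of 8 anchoring and ion-pump partners, 6 were tested, 0 were called and 0 lacked overlap. Their most abundant gene, Bsg, the chaperone of monocarboxylate carriers, had 13479 and 13730 CPM in STINGECKO libraries, against 14098 and 12813 CPM in WT libraries.

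The members' median log2 difference was -0.01 over 5 genes. Among other carriers of the barrier it was 0.00 over 10 amino acid transporters (5 above and 5 below 0) and -0.39 over 7 ATP-driven efflux pumps (1 above and 6 below 0), with 0 genes called in each. When a library was left out, the median ran from -0.11 to -0.00 for the amino acid transporters and from -0.93 to -0.39 for the efflux pumps. The difference between these lists was not tested. Abcb1a, P-glycoprotein, had 226 and 218 CPM in STINGECKO libraries, against 213 and 219 CPM in WT libraries. Abcg2, the breast cancer resistance protein, which shares sulfated substrates with Slco2b1 and Slc22a8, had 244 and 172 CPM in STINGECKO libraries, against 271 and 273 CPM in WT libraries (log2 difference -0.39 ± 0.25, SE). Abcc4, an efflux pump of anionic conjugates, had 121 and 43.3 CPM in STINGECKO libraries, against 108 and 95.3 CPM in WT libraries. Of 7 glucose and lactate carriers, 6 were tested and 0 were called with a median log2 difference of -0.26 that was -0.56 without STINGECKO 1 and 0.02 without STINGECKO 2. The glucose transporter Slc2a1 had 7435 and 4673 CPM in STINGECKO libraries, against 7043 and 7069 CPM in WT libraries.

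Slco1c1, Slco1a4 and Slc22a8 are also expressed in choroid plexus epithelium in rodents. Of its 10 markers, 3 were in both tables, 3 in 1 table and 4 in neither. The 3 summed to 6.03 and 8.25 CPM in STINGECKO libraries, against 5.28 and 24.9 CPM in WT libraries. Of the markers in 1 table, Clic6 had 90 reads in STINGECKO 1 and 8 in WT 3, Slc4a5 had 178 reads in STINGECKO 1 and 0 in WT 3, and Folr1 had 0 reads in STINGECKO 2 and 58 in WT 5. The marker Aqp1 had 0 reads in both STINGECKO libraries, against 94 and 274 reads in WT libraries. DESeq2 called it (adjusted p = 0.0138), whereas edgeR's quasi-likelihood test did not (adjusted p = 0.971). Microglia and macrophage markers, all 9 of them read, summed to 306 and 207 CPM in STINGECKO libraries, against 402 and 1015 CPM in WT libraries. Astrocyte and radial glia markers, 8 of 9 in both tables, summed to 131 and 80.2 CPM in STINGECKO libraries, against 203 and 123 CPM in WT libraries. Of these 8, 4 were at 0 in STINGECKO 2 and 1 in STINGECKO 1, against 0 in both WT libraries. Neuron markers, all 8 of them, summed to 63.7 and 42.3 CPM in STINGECKO libraries, against 135 and 87.1 CPM in WT libraries, and 2 were at 0 in each STINGECKO library. DESeq2 called 2 of the 8 neuron markers, where it called 0.700% of all genes. These were Syn1 and Gap43, both lower in the libraries labelled STINGECKO, and they are named here after their values were seen. edgeR's quasi-likelihood test called neither (adjusted p = 0.971 for each). Meningeal fibroblast markers summed to 316 and 295 CPM in STINGECKO libraries, against 263 and 219 CPM in WT libraries. Oligodendrocyte lineage markers summed to 36.6 and 11.2 CPM in STINGECKO libraries, against 27.1 and 25.3 CPM in WT libraries, and erythroid markers to 1226 and 2858 CPM in STINGECKO libraries, against 2499 and 1306 CPM in WT libraries. The part of these cells in the members' values was not tested.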

How the data were processed

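Whole reads per gene were deposited as counts, per the file headers, in 2 tables that each pair a STINGECKO with a WT library. The deposited CPM columns, fold (ratio) columns, log2 columns and p-value columns are the authors' comparisons of 1 library with 1 library, per the file headers, and were used only where named. Per the submitters' processing notes, the tools were TopHat2 2.0.12, Bowtie2 2.2.3 and HTSeq 0.6.0, and the build was mm9. Yet 89.7% of matched genes have positions identical to GENCODE M21 on GRCm38, so coordinates are given as the tables have them, with that build. The sources used here name no read length, strand setting or annotation release.

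The tables list 16378 and 15627 genes and were joined by gene identifier, since 19 symbols differed. The 14100 shared genes were filtered by expression (minimum count 10), scaled by the trimmed mean method and tested in R 4.3.3 with edgeR 4.0.16 (quasi-likelihood, no covariate, Benjamini-Hochberg over 13365 genes, threshold 0.05). Intervals of a difference use the t quantile with the fitted degrees of freedom. DESeq2 1.42.0, limma 3.58.1, other scalings and filters, a block by table and leaving out each library served as alternatives, and the fits were tested on simulated data. Exon lengths come from GENCODE M21. Spread and likeness use log2 CPM with a prior count of 2. Genes of a like level have a mean CPM within 2-fold of the member's. Promoter motifs were searched on both strands. Members and gene lists were chosen with earlier results of these data known. Named from each list were the 4 genes of highest mean CPM (3 for markers), with a selection printed here, and family genes in the tables. The results of some listed genes are not reported here.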

Additional observations from a re-analysis of the deposited data

Results flagged for a closer look

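Genes related to the members that only 1 table lists were outside the test, and 3 of them had reads well above the WT library beside them. Slc22a12, a urate transporter of the kidney in the family of Slc22a8, had 60 reads in STINGECKO 1 and 0 in WT 3. Ugt1a6a, a glucuronosyltransferase, had 50 reads in STINGECKO 1 and 0 in WT 3. Nr1i2, the xenobiotic receptor known to regulate drug carriers, had 251 reads in STINGECKO 2 and 2 in WT 5. Each rests on a single pair of libraries, so the difference between genotypes was not tested.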

How the results depend on the processing

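No paired analysis by replicate number was possible because the genotypes share none; a block by deposited table, which sets STINGECKO 1 with WT 3 and STINGECKO 2 with WT 5, was fitted as an alternative. With the quasi-likelihood test 0 genes were called; DESeq2 called 93 and edgeR's likelihood ratio test 33, and the cause was not tested. The count was 0 under the other 12 settings, among them limma-voom, 3 other scalings, other filters, a block by table and each library left out. Leaving out each library in turn gave log2 differences from -0.19 to 0.09 for Slco1c1, -6.40 to 0.89 for Slco1a4, -0.05 to 0.02 for Slco2b1, -7.18 to 7.82 for Slco3a1 and -0.08 to 0.17 for Slc22a8. Each such fit leaves a genotype with 1 library, which is assumed to vary like the others. Their smallest adjusted p over the 5 members was 0.253, for Slco1a4. The other settings kept each member's direction. limma-voom gave Slco1a4 -2.54, and the block by table -2.36. Slco1a4 and Slco3a1 had no value under the filter of 10 CPM in 2 libraries. The medians of 21 lists moved by more than their spread in 23 of 209 settings, in 14 lists. At 4 libraries and these depths, the wide intervals of Slco1a4 and Slco3a1 leave changes of many fold undetectable.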
